A study of Rattus norvegicus with 8 samples.

Results

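The apolipoprotein genes of the liver comprised 10 genes, Apoa1, Apoa2, Apoa4, Apoa5, Apob, Apoc1, Apoc3, Apoe, Apoh and Apom. They were chosen by symbol, through the RefSeq accession that each array probe carries, and all 10 of 10 were found among the 15154 genes that could be named on the arrays. Each gene had 1 probe, and all 10 were among the 17859 probes kept for testing, for which 4 arrays or more had a liver signal well above background. The study profiled livers of male Sprague-Dawley rats on 72 two-colour arrays at 2 ages, and 8 arrays of adults aged 78 to 86 days were analysed here. In the AhR group (n = 4 arrays) the dams had received agonists of the aryl hydrocarbon receptor (AhR), namely non-ortho polychlorinated biphenyls, dibenzodioxins and dibenzofurans in corn oil. Their dose was 1.8 ng per kg per day in toxic equivalents of TCDD (tetrachlorodibenzodioxin), given from gestation day 0 to postnatal day 20. In the control group (n = 4 arrays) the dams had received corn oil alone. Pups of both groups stayed with their birth mothers, so exposure was through the dam and had ended weeks before the livers were taken. Each array held RNA pooled from 2 of the 8 rats of its group. The labels do not say which pups shared a litter, so p-values measure the spread between pools.

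Liver RNA carried the dye Cy5, and a universal reference RNA from 14 rat cell lines carried Cy3 on every array. Values are the log2 ratio of Cy5 over Cy3 after background correction and loess, a smoothing that removes the dependence of the ratio on brightness, unless stated otherwise. The median Cy5 signal per array was 163 to 232 units in AhR and 159 to 184.5 in control, over a Cy5 background of 71 to 76 on all 8 arrays. Hepatocyte markers were detected: all 12 were kept, as were 10004 of the 15154 named genes. Alb and Ttr were well above background on 8 of 8 arrays. Such detection does not by itself establish the tissue. Of 14 Kupffer cell and macrophage markers 13 were kept, and Clec4f and Marco were well above background on 8 of 8 arrays. Intestinal carry-over was looked for because enterocytes make Apoa4 and Apob too: Cdx2 was well above background on 0 arrays and Vil1 on 1, while Fabp2, Alpi and Lct were so on 8. In bulk liver, fewer cells of a type and less RNA per cell cannot be told apart.

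Apolipoproteins are the protein coat of lipoproteins, the particles that carry cholesterol and triglyceride in blood. Apob is the scaffold of very low density lipoprotein, while Apoa1 and Apoa2 are the main proteins of high density lipoprotein. The exchangeable members move between particles and set how lipases and hepatic receptors handle them. Hepatic transcription of these genes depends largely on nuclear receptors, among them HNF4A, which binds DNA at repeats related to AGGTCA.

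Apoa1, Apoc3, Apoa4 and Apoa5 form a cluster on chromosome 8 of the rat, and Apoe and Apoc1 are neighbours on chromosome 1 (GRCr8). Promoter windows of 300 bases, 250 before and 50 after the annotated start, were given by RefSeq (GRCr8) for 6 of the 10 genes, 10 windows in all. Apoa1, Apoa2, Apob and Apoc3 had no entry. The windows were searched on both strands for TATAAA, the TATA box, for AGGTCA, the basic motif of nuclear receptors, and for CAAAGT, the core of the HNF4 element. Those of the cluster neighbours Apoa4 (chr8:55435529-55435828, + strand) and Apoa5 (chr8:55457621-55457920, + strand) are shown because the pair is compared below, and that of Apom (chr20:3695368-3695667, + strand) because its pair with Apoe is also described. Matches are in capitals.
Apoa4: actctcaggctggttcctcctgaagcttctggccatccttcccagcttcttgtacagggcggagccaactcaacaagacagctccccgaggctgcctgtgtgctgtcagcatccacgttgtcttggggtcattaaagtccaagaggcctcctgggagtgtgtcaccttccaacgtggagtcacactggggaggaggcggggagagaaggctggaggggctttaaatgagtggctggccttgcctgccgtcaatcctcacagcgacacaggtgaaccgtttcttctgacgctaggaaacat
Apoa5: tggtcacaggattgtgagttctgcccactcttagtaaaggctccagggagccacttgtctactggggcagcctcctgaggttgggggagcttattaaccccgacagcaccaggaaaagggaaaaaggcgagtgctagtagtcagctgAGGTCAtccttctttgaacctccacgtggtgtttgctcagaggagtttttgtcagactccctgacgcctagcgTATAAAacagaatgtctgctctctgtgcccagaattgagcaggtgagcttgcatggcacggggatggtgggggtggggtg
Apom: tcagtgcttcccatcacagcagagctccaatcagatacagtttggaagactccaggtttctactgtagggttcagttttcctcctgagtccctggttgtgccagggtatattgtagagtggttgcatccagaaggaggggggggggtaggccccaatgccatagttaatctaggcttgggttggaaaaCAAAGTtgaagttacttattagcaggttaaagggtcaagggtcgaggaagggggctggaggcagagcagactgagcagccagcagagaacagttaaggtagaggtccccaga
The Apoa5 window held TATAAA 30 bases upstream of the start and AGGTCA 103 bases upstream. The Apom window held CAAAGT 62 bases upstream, and the Apoa4 window held none of the 3 letter strings. A second annotated Apoa5 start had a window overlapping the first. Its TATAAA was the same match, there 184 bases upstream, and its CAAAGT lay 39 bases downstream on the opposite strand. The windows of Apoc1, Apoe and Apoh had none. Among all 33469 windows of the table, 14.2% held TATAAA, 16.2% AGGTCA and 14.8% CAAAGT, so the matches are a description of these windows only.

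The comparison of AhR with control asks whether exposure before weaning left a difference in adult liver. No apolipoprotein gene passed the test: 0 of 10 had an adjusted p under 0.05 in limma (Benjamini-Hochberg adjustment over 17859 probes), against 0% of all kept probes. The adjusted p was 1.00 for each of the 10. At an unadjusted p under 0.05 there were 0 of 10, against 1.61% of all kept probes (288), and 0 of 10 had groups that did not overlap, against 1.19% (212). The means were higher in AhR for 7 genes and lower for 3, with a median difference of 0.09 (log2) over the 10 genes. Over all kept probes the median difference was -0.01 and 47.7% were higher in AhR. The 95% intervals of all 10 genes lay within a 2-fold difference in either direction, and those of 8 within 1.5-fold. Apoa4 and Apoc1 were the 2 whose intervals reached beyond 1.5-fold.

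**Figure D1:**
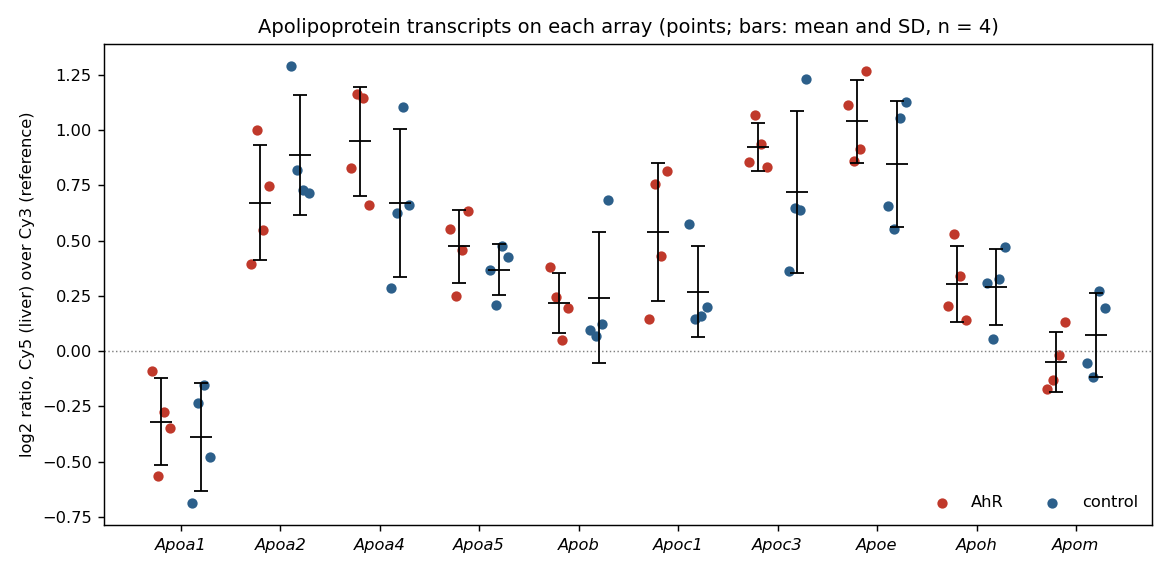
Log2 ratio of Cy5 (liver) over Cy3 (reference) for each apolipoprotein gene on each array, AhR (red) left of control (blue), with mean and SD (n = 4 arrays each). The groups overlap for all 10 genes, and control arrays stand apart from their group for Apob (0.68) and Apoc1 (0.57).

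Among the proteins of high density lipoprotein, Apoa1, which activates lecithin-cholesterol acyltransferase, had log2 ratios of -0.09, -0.57, -0.27 and -0.35 in AhR replicates 1 to 4, against -0.69, -0.23, -0.15 and -0.48 in control replicates 1 to 4. Values of both groups were interspersed. Its mean was -0.32 ± 0.20 in AhR and -0.39 ± 0.24 in control (SD, n = 4 each), a difference of 0.07 with a 95% interval of -0.24 to 0.38 (limma p = 0.641, exact permutation p = 0.686). Apoa2, its partner on the same particles, had 0.39, 1.00, 0.55 and 0.75 in AhR, against 1.29, 0.82, 0.73 and 0.71 in control. The highest value was control replicate 1 and the lowest AhR replicate 1, and 1 AhR array lay above 3 of the control arrays. The mean of 0.67 ± 0.26 in AhR and 0.89 ± 0.27 in control (SD, n = 4 each) gave a difference of -0.22 (SE 0.16, interval -0.57 to 0.14, limma p = 0.208, exact permutation p = 0.343). Apom, which carries sphingosine-1-phosphate on these particles, had -0.17, -0.13, -0.02 and 0.13 in AhR, against -0.05, -0.12, 0.27 and 0.19 in control. The 2 highest arrays were controls, and the remaining control arrays lay within the AhR range. The difference was -0.12 (SE 0.12, interval -0.38 to 0.14, limma p = 0.326, exact permutation p = 0.286). These were the measured values of 1 spot per array, whereas the other members had 2 spots or more.

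Among the genes of triglyceride metabolism, Apoa4, made in response to dietary fat, differed most in absolute terms. It had 0.83, 1.16, 1.14 and 0.66 in AhR, against 0.29, 0.63, 1.10 and 0.66 in control. Control replicate 3 stood among the high AhR arrays, and AhR replicate 4 among the controls. The mean of 0.95 ± 0.25 in AhR and 0.67 ± 0.34 in control (SD, n = 4 each) gave a difference of 0.28 (SE 0.17, interval -0.11 to 0.66), a 1.21-fold higher level in AhR with an interval of 0.928 to 1.58 (limma p = 0.140, exact permutation p = 0.171). Apoc3, an inhibitor of triglyceride clearance, had 0.85, 1.07, 0.93 and 0.83 in AhR, against 0.36, 0.65, 0.64 and 1.23 in control. AhR arrays were close together, and control arrays lay below them and, in replicate 4, above them. The difference was 0.20 (SE 0.16, interval -0.16 to 0.56, limma p = 0.238, exact permutation p = 0.314). Apoa5, which promotes lipolysis by lipoprotein lipase, had 0.55, 0.25, 0.46 and 0.63 in AhR, against 0.37, 0.21, 0.47 and 0.43 in control. Its values spread least of the 10, and the difference was 0.11 (SE 0.11, interval -0.13 to 0.34, limma p = 0.352, exact permutation p = 0.343). Apob had 0.38, 0.25, 0.05 and 0.20 in AhR, against 0.09, 0.07, 0.12 and 0.68 in control. Its highest array was a control, as was the second lowest, and the difference was -0.02 (SE 0.14, interval -0.34 to 0.30, limma p = 0.875, exact permutation p = 0.914).

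Among the genes of remnant clearance, Apoe, the ligand through which the liver takes up remnants, had 1.11, 0.86, 0.91 and 1.27 in AhR, against 0.65, 0.55, 1.05 and 1.13 in control. Control replicates 1 and 2 were below every AhR array, and control replicates 3 and 4 lay among them. The difference was 0.19 (SE 0.15, interval -0.14 to 0.52, limma p = 0.227, exact permutation p = 0.314). Apoc1, the neighbour of Apoe and an inhibitor of lipoprotein uptake, had 0.14, 0.76, 0.43 and 0.82 in AhR, against 0.57, 0.15, 0.16 and 0.20 in control. AhR replicate 1 and control replicate 1 each stood with the arrays of the other group. The difference was 0.27 (SE 0.16, interval -0.09 to 0.62, limma p = 0.122, exact permutation p = 0.257), from a probe with 10 spots per array. Apart from remnant clearance, Apoh, a phospholipid-binding plasma protein also called beta-2-glycoprotein, had 0.20, 0.53, 0.34 and 0.14 in AhR, against 0.31, 0.06, 0.33 and 0.47 in control. The groups covered nearly the same range, and the difference was 0.01 (SE 0.12, interval -0.25 to 0.28, limma p = 0.922, exact permutation p = 0.914). With 4 arrays against 4, the smallest p that the exact two-sided permutation test allows is 0.0286.

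Both channels contributed to these ratios. On each channel alone, quantile-normalized between arrays, the Cy5 (liver) signal of Apoc1 differed by 0.06 between AhR and control (log2), against 0.27 in the ratio, and its Cy3 (reference) signal by -0.15. For Apoc3 the Cy5 difference was 0.06 and the Cy3 difference -0.10, and for Apoe they were 0.09 and -0.09. For Apoa4 they were 0.17 and -0.11, and for Apoa2 -0.09 and 0.08. The sign of the difference was the same in the ratio and in Cy5 alone for 9 of 10 genes, Apoh being the exception. The Cy3 difference ran opposite to the ratio for 8 of 10. Because the log2 ratio is Cy5 minus Cy3, both counts are partly built in. The median absolute difference over the 10 genes was 0.16 in the ratio and 0.07 in Cy5 alone. Per the labels, the Cy3 channel held the universal reference RNA on every array. What sets the Cy3 differences was not tested.

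**Figure D2:**
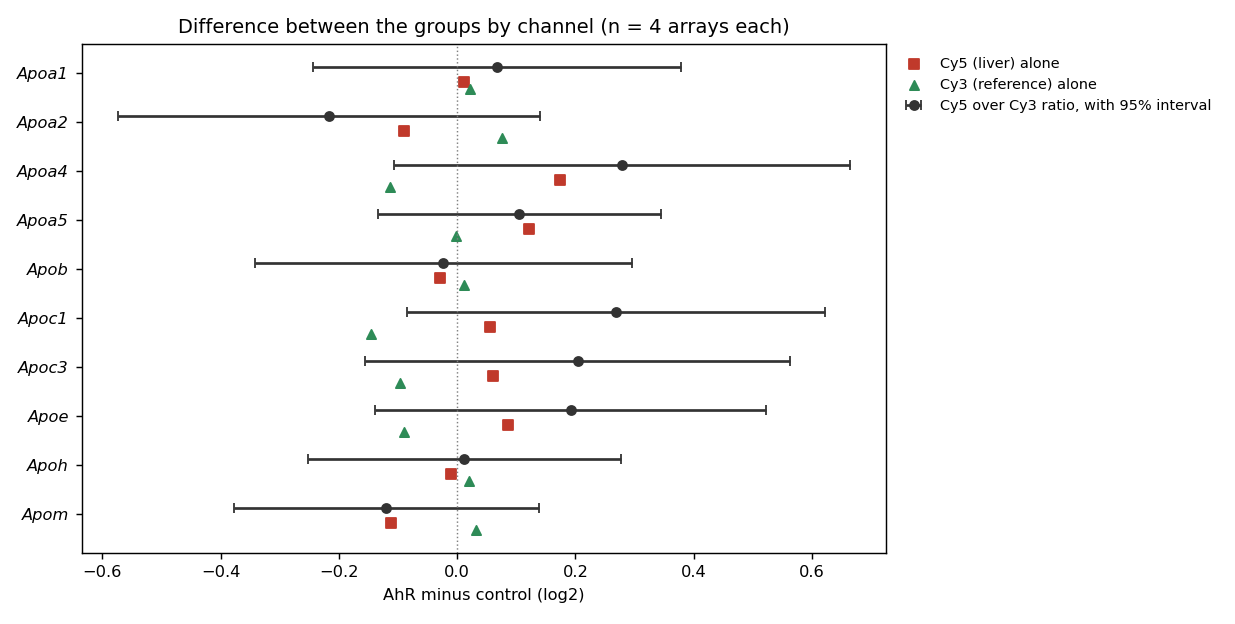
Difference of AhR minus control (log2) for each gene, in the Cy5 over Cy3 ratio (circles, 95% interval from limma), in Cy5 alone (squares) and in Cy3 alone (triangles), n = 4 arrays each. All 10 intervals include 0, and for Apoc1 the Cy5 difference of 0.06 is smaller than the Cy3 difference of -0.15 in absolute terms.

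The 2 channels also moved against each other within groups. After group means were removed, Cy5 and Cy3 of the same gene had a negative correlation over the 8 arrays for all 10 genes, with r between -0.97 and -0.39 and a median of -0.65. This relation was added after the data had been seen. Of 10 correlations 4 passed an adjusted exact permutation p of 0.05. Such p-values are approximate and can be too small, because the orderings mixed both groups after group means were removed. Apoc1 had r = -0.97 (rho = -0.95, exact permutation p = 0.000124, adjusted p = 0.00124 over 10), Apoa4 r = -0.93 (rho = -0.83, adjusted exact p = 0.00761), Apoc3 r = -0.91 (rho = -0.84, adjusted exact p = 0.00761) and Apoa2 r = -0.83 (rho = -0.81, adjusted exact p = 0.0221). With ranks, 1 of these, Apoc1, passed (adjusted exact p = 0.0114). Without the 2 arrays farthest from the median of Cy3, r was -0.93 for Apoc1, -0.81 for Apoa4, -0.87 for Apoc3 and -0.48 for Apoa2. For Apoa1 and Apob it turned to 0.16 and 0.40, so that their negative values of -0.59 and -0.39 rested on those arrays. It weakened from -0.65 to -0.17 for Apoe and from -0.65 to -0.20 for Apoh. For Apoa5 it went from -0.48 to -0.60 and for Apom from -0.49 to -0.83.

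The same was seen in other bright probes. Brightness was ranked by the mean log2 signal of both channels. Over all kept probes the median r of Cy5 with Cy3 was 0.09 and 43.4% were below 0. The median was -0.29 in the brightest 10% of probes and -0.53 in the brightest 2%, of which 85.2% were below 0. All 10 apolipoprotein probes were in that brightest 2%, at ranks 5 to 270 of 17859. Of 22 other secreted plasma proteins 17 had r below 0, with a median of -0.64, and Alb had -0.96. Median scaling of each channel in place of quantile normalization kept all 10 below 0, with a median of -0.50, but 0 of 10 then passed the adjusted exact p. No spot of these genes was saturated in either channel, and the highest Cy5 intensity was 67.1% of the saturation value. What sets the channels against each other was not tested.

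**Figure D3:**
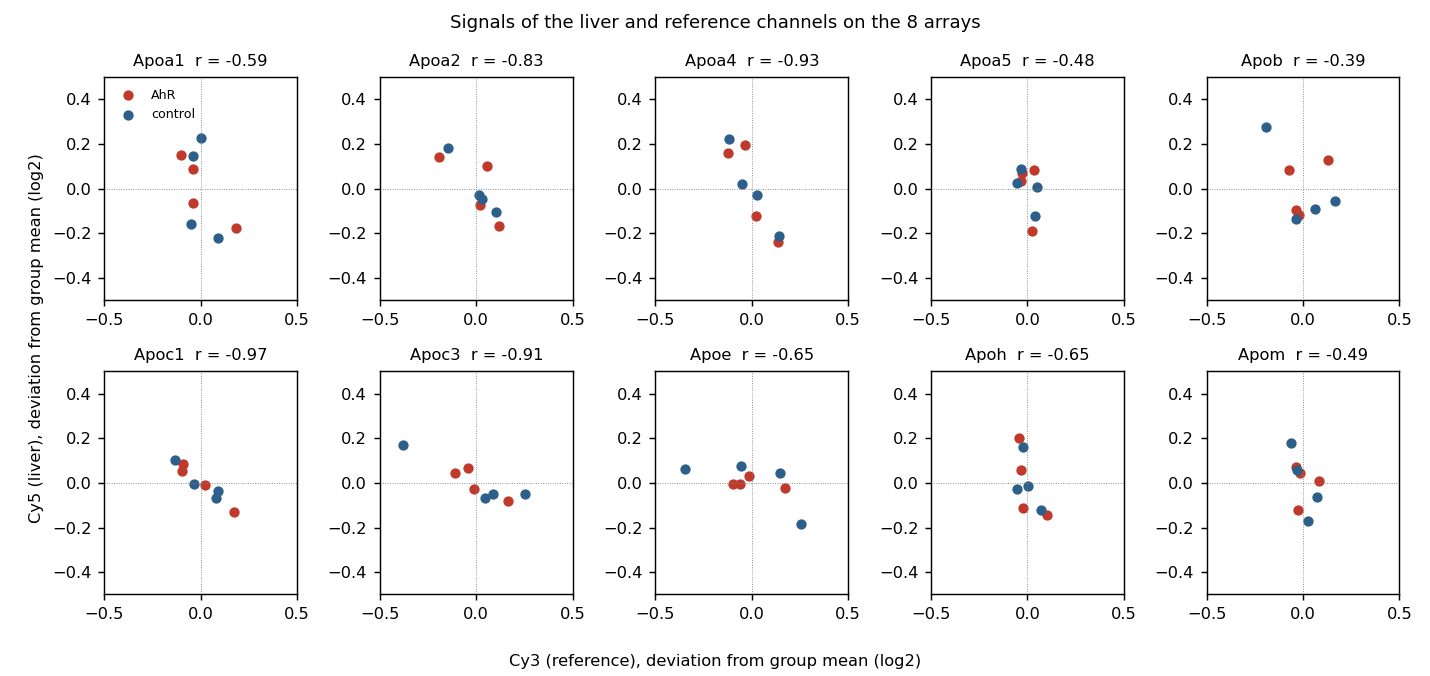
Deviation of Cy5 (liver, vertical axis) from its group mean against that of Cy3 (reference, horizontal axis), both log2 and quantile-normalized, on 4 AhR (red) and 4 control (blue) arrays. Pearson r is below 0 in all 10 panels, from -0.97 for Apoc1 to -0.39 for Apob.

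In raw intensity, before any scaling between arrays, Cy3 ranged more widely over the 8 arrays than Cy5 for 3 of 10 genes, Apoc1, Apoc3 and Apoe. Apoc3 had the widest Cy3 range of the 10. Its Cy5 medians were 350356, 500496, 389728 and 369707 units in AhR, and 345272, 336594, 348940 and 437030 in control. Its Cy3 medians were 117766, 93153, 122648 and 140027 units in AhR, and 176062, 156994, 137388 and 84527 in control. Control replicate 4 had the lowest Cy3 of the 8 and AhR replicate 2 the highest Cy5, and these 2 arrays had the highest ratios. The same arrays had the lowest median Cy3 over all spots other than controls (91.5) and the highest median Cy5 (232), so that raw ranges include the brightness of the whole array. The Cy3 range was 2.08-fold and the Cy5 range 1.49-fold over the 8 arrays. For Apoe the Cy3 range was 1.87-fold and the Cy5 range 1.53-fold, while for Apoa5 they were 1.35-fold and 1.74-fold.

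Set against the cell-line reference, liver was brighter for 9 of 10 genes, and for 8 of them on every array. Cy5 was above Cy3 for 51.6% of all kept probes and 68.2% of the brightest 2%, in which all 10 lie. The mean of Cy5 minus Cy3 over 8 arrays was 0.94 (log2) for Apoe, a 1.92-fold brighter liver channel, 0.82 for Apoc3, 0.81 for Apoa4 and 0.78 for Apoa2. It was 0.42 for Apoa5, 0.40 for Apoc1, 0.30 for Apoh, 0.23 for Apob and 0.01 for Apom, which was above 0 on 3 of 8 arrays. Apoa1 was the exception, with Cy3 1.28-fold brighter and Cy5 above Cy3 on 0 of 8 arrays. The dyes were not swapped, so that dye and RNA cannot be told apart in these offsets. They also moved with the normalization: with median centring in place of loess they ran from 0.04 for Apoa1 to 1.38 for Apoe, and with the scanner software's processed signals from -0.53 to 0.63, Apoa1 and Apoe again at the ends. The count of genes brighter in liver was 10 of 10 with median centring and 8 of 10 with processed signals, where Apom was at -0.08.

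For most of these genes the spread within groups was above the median of all kept probes in the ratio, and below it in the liver channel alone. In the ratio, the pooled SD within groups (6 degrees of freedom) ran from 0.14 for Apoa5 to 0.29 for Apoa4, with a median of 0.24 over the 10 genes, against 0.17 over all kept probes, 0.20 over the brightest 10% and 0.22 over the brightest 2%. It was above the median of all kept probes for 8 of 10, Apoa5 and Apom being below. Spots of the same probe on the same array differed by an SD of 0.02 to 0.05 for the 9 genes with repeated spots, a measure of spot noise only. In Cy5 alone the SD was below the median of all kept probes for 8 of 10, Apoa1 and Apoa4 being above, with a median of 0.13 over the 10 genes, against 0.16 over all kept probes and 0.15 over the brightest 2%. It was 0.09 for Apoc1, Apoc3 and Apoe, less than in the ratio (0.26, 0.27 and 0.24), and 0.19 for Apoa1 and 0.20 for Apoa4.

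No pair of neighbouring genes passed the test for varying together. Over 8 arrays, with group means removed, the 6 pairs of the chromosome 8 cluster and the pair of Apoe and Apoc1 had r between -0.21 and 0.38, and 0 of 7 passed (lowest exact permutation p = 0.351, adjusted p = 0.918 over 7). Apoa4 and Apoa5, whose promoters are shown above, had r = -0.21 (rho = -0.24), and r = -0.71 without the 2 arrays farthest from the median of Apoa4. Apoa1 and Apoa4 had r = 0.38 (rho = 0.36), and Apoe and Apoc1 r = -0.15 (rho = 0.05). With 8 arrays such values do not show that the genes vary independently.

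**Figure D4:**
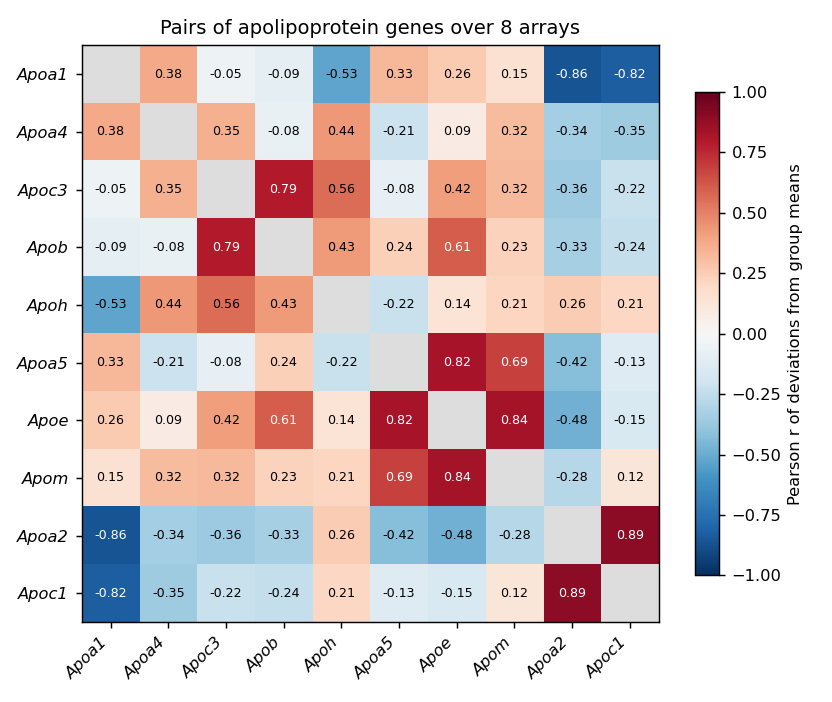
Pearson r of deviations from group means over 8 arrays for the 45 pairs of genes, on a scale from -1 (blue) to 1 (red). The highest value is 0.89 (Apoa2 with Apoc1) and the lowest -0.86 (Apoa1 with Apoa2).

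All 45 pairs were then examined, a choice made after seeing the data, and 0 passed an adjusted exact permutation p of 0.05 (lowest 0.0792), while 6 had an unadjusted p under 0.05. These were Apoa2 with Apoc1 (r = 0.89), Apoe with Apom (0.84), Apoa5 with Apoe (0.82), Apob with Apoc3 (0.79), Apoa1 with Apoc1 (-0.82) and Apoa1 with Apoa2 (-0.86). No share for pairs of other probes stands beside this count, so it is not shown to be particular to these genes. None of the 6 pairs joins genes of the chromosome 8 cluster to each other. Apoa1 and Apoa2 encode proteins of the same particles, and the arrays lowest in Apoa1, control replicate 1 and AhR replicate 2, were the highest in Apoa2. Without the 2 arrays farthest from the median of Apoa1, r was -0.47 for this pair. In Cy5 alone, Apoa2 and Apoc1 had r = 0.94 (adjusted exact permutation p = 0.0290 over 45). As for the channels above, this p-value is approximate and can be too small.

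Of 9 kept clock genes, 7 had an SD within groups above the median of all kept probes. Dbp, an output gene of the circadian clock, had log2 ratios of 1.41, 1.22, 0.08 and -2.21 in AhR, and 0.32, -1.36, -1.52 and -0.42 in control. Neither Dbp nor Nr1d1, which encodes the clock repressor REV-ERB alpha, was correlated with an apolipoprotein gene past an adjusted exact permutation p of 0.05 (0 of 20 pairs). The lowest was Nr1d1 with Apoh (r = 0.79, rho = 0.64, exact permutation p = 0.0232, adjusted p = 0.465), which fell to r = 0.27 without the 2 arrays farthest from the median of Nr1d1. Dbp and Apoa1 had r = -0.30 over 8 arrays and -0.99 without the 2 arrays farthest in Dbp, so that their relation was set by which arrays were counted.

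The rest of lipoprotein metabolism gave the same count of 0 past the adjusted p in each direction. Of 14 other apolipoprotein and related genes 8 were kept, 5 higher and 3 lower in AhR, with a median difference of 0.07 (log2). Apoc4, which lies beside Apoc1, averaged 0.07 ± 0.22 in AhR and -0.29 ± 0.30 in control (SD, n = 4 each), a difference of 0.36 (SE 0.16, limma p = 0.0484, adjusted p = 1.00, exact permutation p = 0.114). Apool, a mitochondrial member of the family, averaged -0.48 ± 0.22 in AhR and -0.18 ± 0.17 in control, a difference of -0.30 (SE 0.13, limma p = 0.0458, adjusted p = 1.00, exact permutation p = 0.0857). Both had an unadjusted limma p under 0.05, as did 1.61% of all kept probes, and neither passed with adjustment.

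Of 22 genes of lipoprotein assembly and remodelling 17 were kept, 7 higher and 10 lower in AhR, with a median of -0.01. A1cf, a cofactor of Apob messenger RNA editing, had a difference of -0.18 (SE 0.11). Of 14 receptor and uptake genes 9 were kept, 4 higher and 5 lower, with a median of -0.0028. Cd36, a fatty acid transporter, had -0.15 (SE 0.29). Of 22 regulators 18 were kept, 9 higher and 9 lower, with a median of -0.0031. Foxa1 had -0.24 (SE 0.11) and Nr5a2 -0.26 (SE 0.13), both transcription factors of hepatocytes, and Hnf4a had 0.17 (SE 0.11).

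Other cell type lists stood as follows. Of 22 other secreted plasma proteins, all kept, 14 were higher and 8 lower in AhR, with a median of 0.07, close to the 0.09 of the apolipoproteins. Fetub and Itih3 had differences of 0.18 (SE 0.10) and 0.19 (SE 0.13), and Alb had -0.20 (SE 0.19). Of 12 hepatocyte markers 6 were higher and 6 lower, with a median of 0.02. Of 13 Kupffer cell and macrophage markers 11 were higher and 2 lower, with a median of 0.15; Cd163 had 0.25 (SE 0.19) and Adgre1 0.28 (SE 0.22). Leaving out AhR replicate 3 brought this median to -0.0013, and leaving out control replicate 1 brought it to -0.05. The mean log2 ratio of these 13 per array was -0.20 to 0.38 in AhR and -0.73 to 0.14 in control, and its part in the apolipoprotein values was not tested. Of 6 kept enterocyte markers, 2 of which are Apoa4 and Apob, 3 were higher and 3 lower, and Alpi had 0.03 (SE 0.09). Of 9 kept clock genes 7 were higher and 2 lower, with a median of 0.10; Tef had 0.48 (SE 0.25), Bmal1 -0.52 (SE 0.41), Dbp 0.87 (SE 0.71) and Nr1d1 0.16 (SE 0.19).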

How the data were processed

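Liver RNA of 8 pools of adult rats was measured on 8 two-colour Agilent arrays of 1 slide and 1 scan. Per the file headers, the scanner software was Agilent Feature Extraction 10.7.3.1. Its output, as deposited, gives for each spot the median intensity of the spot and of its background. It also gives processed intensities and log10 ratios, which the authors deposited too. A further table that the authors deposited holds log2 values. Its columns followed the log2 Cy5 over Cy3 ratio of unsubtracted medians after loess (r 0.9898 to 0.9943, slope 0.978 to 0.988, column medians 0.00569 to 0.0165), and its exact dye correction is unknown.

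Background was corrected by normexp (offset 50), followed by loess within arrays in limma 3.58.1 (R 4.3.3). Control spots and spots flagged as outliers had no weight in the loess. Repeated spots of a probe were averaged, leaving out flagged ones, which were 7 spot values of Apoc1 and 0 of the other members. Of 30367 probes, 17859 were kept, those with 4 arrays or more on which Cy5 was well above background. The number of arrays limits the precision. Files carry RefSeq accessions, matched without versions to RefSeq symbols (GRCr8), which named 11656 kept probes of 10004 genes. The array was designed on rn4, so that coordinates are given for RefSeq promoters alone. Groups were compared with limma (lmFit, eBayes) and Benjamini-Hochberg adjustment over all kept probes, and with exact two-sided permutation tests over arrays. Correlations used deviations from group means, over all 40320 orderings of 8 arrays (Python 3.11.15). The orderings moved arrays across both groups, although the deviations sum to 0 within each group. The permutation p-values of correlations are therefore approximate and can be too small. The script was tested on simulated data. For the correlations those data had no groups, so the removal of group means was not covered.

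The members and the gene lists were chosen with earlier results of these data known, and no list was tested as a set. Genes named were the 10 members, the 2 genes of smallest p in each list (of which 2 are not reported here), Dbp, Nr1d1 and Alb, and the 5 genes most alike in pattern to Apoa4, the member of largest SD, and to the mean of the standardized members. No 2 arrays were identical. Alternatives covered the background correction, normalization, channel, filter, value table, blocks, variance model, probes per gene and each array left out. Sequences of probes and proteins were not used here.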

Additional observations from a re-analysis of the deposited data

Results flagged for a closer look

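In 2 of 20 groups of 4 arrays (10 genes in AhR and in control) 1 array lay far from the other 3 by Dixon's criterion, which chance meets in about 1 group in 20. The log2 ratio of Apob was 0.68 in control replicate 4, against 0.07 to 0.12 in the other 3 control arrays, and the gap took 0.912 of the group's range. That array also had the highest control values of Apoc3 and Apoe, and the lowest Cy3 intensity of Apob among the 8. Its low Cy3 was not particular to Apob: its median Cy3 over all spots other than control spots was also the lowest, at 91.5. The log2 ratio of Apoc1 was 0.57 in control replicate 1, against 0.15 to 0.20 in the other 3, a gap of 0.879 of the range. That array also had the highest Apoa2 and the lowest Apoa1 of the 8.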

How the results depend on the processing

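No alternative brought an apolipoprotein gene, or any kept probe, past an adjusted p of 0.05. Of 19 alternatives, 5 (no filter, both blocks, the variance model and the mean over probes) leave the differences of single genes as they are by construction. Under the other 14, 130 of 140 differences kept their direction. Over all 19, the lowest adjusted limma p of the 10 genes was 0.913. Over all kept probes it was 0.214, without control replicate 4. Apoh turned to -0.0089 with processed signals, -0.0111 with Cy5 alone and -0.0062 with the deposited value table, and Apob to 0.0084 with median centring. With 1 array left out at a time, Apoa1 ranged from -0.0323 to 0.1496 (below 0 without AhR replicate 1 or control replicate 1), Apob from -0.0813 to 0.1237 (above 0 without AhR replicate 3 or control replicate 4) and Apoh from -0.0659 to 0.0724 (below 0 without AhR replicate 2 or control replicate 2). The median of the enterocyte markers was 0.0467 with median centring, and ranged from -0.048 to 0.0515 with 1 array left out. Among neighbours, r turned to 0.16 for Apoa1 with Apoc3 and 0.11 for Apoc3 with Apoa5 with processed signals, to 0.26 for Apoe with Apoc1 in Cy5 alone, and to -0.17 for Apoa1 with Apoa5 without the 2 farthest arrays. The median of the Kupffer cell and macrophage markers ranged from -0.05 (without control replicate 1) to 0.24 with 1 array left out. The cause of these changes was not tested. The median difference of the 10 genes ranged from 0.03 (Cy5 alone) to 0.12 (median centring), and with 1 array left out from 0.05 (without control replicate 1) to 0.15 (without AhR replicate 2). The replicate number was also the column of the slide on every array, so same-numbered arrays shared a column. They had correlations of 0.003, -0.062, 0.048 and -0.369, each below the highest with another number. So few values do not show whether the arrays were paired. With the replicate number as a replicate block, 0 genes and 0 probes passed, and the median difference stayed 0.09. With the row of the slide as a block these values were the same. The alternative of spot means was not run, because the files used hold medians. Means rest on 4 arrays per group, and all 10 probes were far above background.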

Other observations

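As a description over 9994 genes and 8 arrays, with group means removed, the genes whose ratios followed Apoa4 most closely were Mtfp1 (r = 0.98), Birc5 (0.98), Thap11 (0.98), Cxcl10 (0.98) and Vim (0.97). Those most like the mean of the 10 standardized apolipoprotein genes were Wrap53 (0.98), Eogt (0.96), Acadm (0.96), Fah (0.96) and Eps15l1 (0.96). These are the highest of 9994 values from 8 arrays that share their hybridisation, and no test was made.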
